A study of Mus musculus with 6 samples.

Results

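The genes described here build cholesterol and fatty acids or control that synthesis, and their transcripts were followed in regulatory T cells (Treg) of mouse mesenteric lymph nodes. The list was fixed by gene name and holds 32 genes, 23 of a sterol arm and 9 of a fatty acid arm. Of these, 31 had a probe set of their own symbol in the array annotation, of 18193 genes in all, and 30 were bright enough to be tested, of 10916 in all. Acat2 was not analysed here, and the desaturase gene Scd1 lay under the signal limit.

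Treg restrain immune responses and are marked by the factor Foxp3. The 3 iTreg arrays hold Foxp3-positive CD4 cells from BALB/c TBmc mice with a Foxp3 GFP reporter, aged 4 to 6 weeks, sorted as negative for Nrp after 1 week of oral ovalbumin at 1%. TBmc mice carry a T cell receptor for ovalbumin and a B cell receptor of fixed specificity on a recombinase-deficient background, so that their Foxp3-positive cells arise outside the thymus once antigen is given. The 3 WT Treg arrays hold total Foxp3-positive CD4 cells of wild-type BALB/c Foxp3 GFP mice of the same age, which had no feeding named in their labels. That pool mixes cells of thymic and peripheral origin, and the groups differ at once in receptor, genotype, feeding and gate, whose parts cannot be told apart. The labels go against the groups at 2 arrays: WT Treg replicate 1 is also labelled Nrp-negative, and the strain label of iTreg replicate 1 names neither TBmc nor the reporter. Nothing in the labels ties replicates to separate mice, so a p-value here measures only how far these arrays scatter, and that scatter may be technical. In such bulk samples fewer cells of a type and less RNA per cell cannot be told apart.

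Cholesterol is built from acetyl-CoA through mevalonate, isoprenoid pyrophosphates and squalene, which is closed into lanosterol and then trimmed to cholesterol. Fatty acids are built from the same acetyl-CoA by carboxylation, chain assembly, elongation and desaturation. The SREBP transcription factors drive both arms: Scap carries them out of the endoplasmic reticulum when sterol is low, and the Insig proteins hold them back when it is high. Lymphocytes raise this synthesis when they grow and divide, and Treg use mevalonate products in their suppressive function.

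The promoters of 3 mevalonate and sterol genes are shown because their groups did not overlap on the probe set used: Hmgcs1 had higher signals in iTreg, on 1 of its 5 probe sets, while Idi1 and Sc5d had lower ones. Idi1 and Sc5d each had another probe set on which the groups overlapped. None of the 3 genes passed the test. Pmvk, the other sterol gene without overlap, has 2 listed promoters and is not shown. Each stretch is the 200 bases before the start site, from RefSeq on GRCm38.p6, written 5′ to 3′ on the gene's strand. Hmgcs1 lies at chr13:119690151-119690350 on the plus strand, Idi1 at chr13:8885406-8885605 on the plus strand and Sc5d at chr9:42264301-42264500 on the minus strand. Capitals mark the core of the sterol element bound by SREBP (TCACNCCAC), the box of its partner NF-Y (CCAAT, or ATTGG on the other strand) and the E-box (CACGTG).
Hmgcs1: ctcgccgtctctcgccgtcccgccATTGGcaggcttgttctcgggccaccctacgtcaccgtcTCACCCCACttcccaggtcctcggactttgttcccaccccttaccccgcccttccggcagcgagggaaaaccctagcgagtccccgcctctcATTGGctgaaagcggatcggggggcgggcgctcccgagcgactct
Idi1: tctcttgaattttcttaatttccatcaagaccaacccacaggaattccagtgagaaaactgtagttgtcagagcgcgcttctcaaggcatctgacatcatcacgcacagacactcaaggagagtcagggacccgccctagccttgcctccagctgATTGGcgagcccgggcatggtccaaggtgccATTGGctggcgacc
Sc5d: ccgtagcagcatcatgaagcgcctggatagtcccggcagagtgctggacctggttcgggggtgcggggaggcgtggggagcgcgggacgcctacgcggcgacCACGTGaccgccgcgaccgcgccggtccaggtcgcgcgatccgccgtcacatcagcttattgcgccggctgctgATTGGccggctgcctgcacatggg

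All 3 stretches hold at least 1 NF-Y box, and the sterol element with these letters stands in Hmgcs1 alone, from -137 to -129 relative to the start site. The RefSeq table gave promoters of 300 bases, reaching past the start site, for 25 of the 32 listed genes. Searched on both strands, with overlapping matches counted separately, an NF-Y box stood in the promoters of 17 of 19 sterol genes and 3 of 6 fatty acid genes. Counted by promoter, 21 of 33 of the listed genes' promoters held it, against 37.4% of 32851 mouse promoters. An E-box stood in 5 of the 25 genes, and in 6 of the 33 promoters against 7.15% of all promoters. Overlapping promoters of Scap hold the same E-box, which is counted in each, and all promoters were counted in this way. The sterol element stood in 1 gene, and in 1 of the 33 promoters against 1.24%. A match describes letters in this window and is not a bound site.

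The arrays were first compared as a whole. All had been scaled to one trimmed mean, and median signals were 24.3 to 27.4 in iTreg and 21.1 to 32.3 in WT Treg. Across the tested genes iTreg replicate 3 correlated with the other arrays at 0.88 to 0.90, and the other pairs at 0.91 to 0.95. These other pairs did not sort by group. Pairs within WT Treg correlated at 0.931 to 0.949, and iTreg replicates 1 and 2 at 0.938. WT Treg replicate 1, an array with a label doubt, correlated with iTreg replicates 1 and 2 at 0.948 and 0.946. As a measure of RNA quality, 3′ over 5′ signal of Gapdh on the log2 scale averaged 2.97 in iTreg and 2.38 in WT Treg (exact permutation test, two-sided p = 0.2, where 0.1 is the smallest possible). The same ratio for beta-actin was near level, at 0.21 in iTreg and 0.24 in WT Treg (exact permutation test, two-sided p = 0.8). The part of RNA quality in the differences below was not tested. The 6 measured T cell markers summed to signals of 14523 to 17387 in iTreg and 14725 to 21889 in WT Treg. Markers of other cells were dim by comparison: the summed signal was 58.2 to 120 in iTreg and 81.9 to 127 in WT Treg for 6 B cell genes, and 90.7 to 177 in iTreg and 70.1 to 107 in WT Treg for 7 myeloid genes, each gene counted by its brightest probe set. The 2 CD8 genes summed to 101 to 225 in iTreg and 73.2 to 107 in WT Treg, and the part of any such cells in the differences below was not tested. Some single markers had groups without overlap within these sums. Of all genes tested, 5.1% showed this as higher in iTreg and 7.78% as lower. The myeloid gene Lyz2 had 44.6, 44.2 and 23.1 in iTreg against 21.9, 9.01 and 8.79 in WT Treg. Its WT Treg signals and that of iTreg replicate 3 lay within the range of bacterial controls without a spiked target, which reached 28.5. Cd8b1 had 69.6, 132 and 70.1 in iTreg against 63.3, 33.7 and 34.0 in WT Treg, while the groups overlapped in Cd8a. The T cell gene Cd5 had 823, 661 and 519.6 in iTreg against 1445, 1323 and 1392 in WT Treg. Lyz2, Cd8b1 and Cd5 did not pass the test (limma adjusted p = 0.622, 0.698 and 0.306 in that order). Of the 6 measured T cell markers 4 had a lower mean in iTreg and 2, Cd3e and Cd4, a higher one. The stromal and fat cell list summed to 387 to 837 in iTreg and 382 to 440 in WT Treg, nearly all from Pecam1, and its fat cell genes Adipoq and Fabp4 lay under the signal limit.

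No member passed the test at an adjusted p under 0.05. The comparison called 0 genes higher in iTreg and 3 lower (0% and 0.0275% of the 10916 tested). Without adjustment, 3 of the 30 tested members passed p under 0.05 as higher in iTreg (Hmgcs1, Pmvk and Elovl6) and 1 was lower (Sc5d), against 3% and 4.58% of all genes tested. Groups without overlap were found for 2 members that were higher and 2 that were lower, against 5.1% and 7.78% of all genes, a share near that background. The members' adjusted p ran from 0.385 to 0.987.

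Sterol genes were more often lower than higher in iTreg, and fatty acid genes were evenly split. Of the 22 tested sterol genes 16 had a lower mean in iTreg, against 52.8% of all genes tested, and their median log2 difference was -0.32, where the median of all genes tested was -0.03. That median was -0.15 with a 60th percentile filter on signal and -0.21 with a pseudocount of 64 or without both replicate 3 arrays. Of the 8 tested fatty acid genes 4 were lower and 4 higher, with a median log2 difference of 0.23. It ran from 0.026 without WT Treg replicate 1 to 0.64 without WT Treg replicate 2, and was 0.63 without WT Treg replicate 3. With both doubtfully labelled arrays left out it was 0.059. One of the 8, Fads2, passed the signal limit only through WT Treg, and the 60th percentile filter, which leaves it out, gave 0.50. The members of an arm are not replicates, and no test was made of either median or of the gap between them. A log2 difference is the mean of log2(signal + 16) in iTreg minus that in WT Treg, so it understates the change of dim genes.

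**Figure D1:**
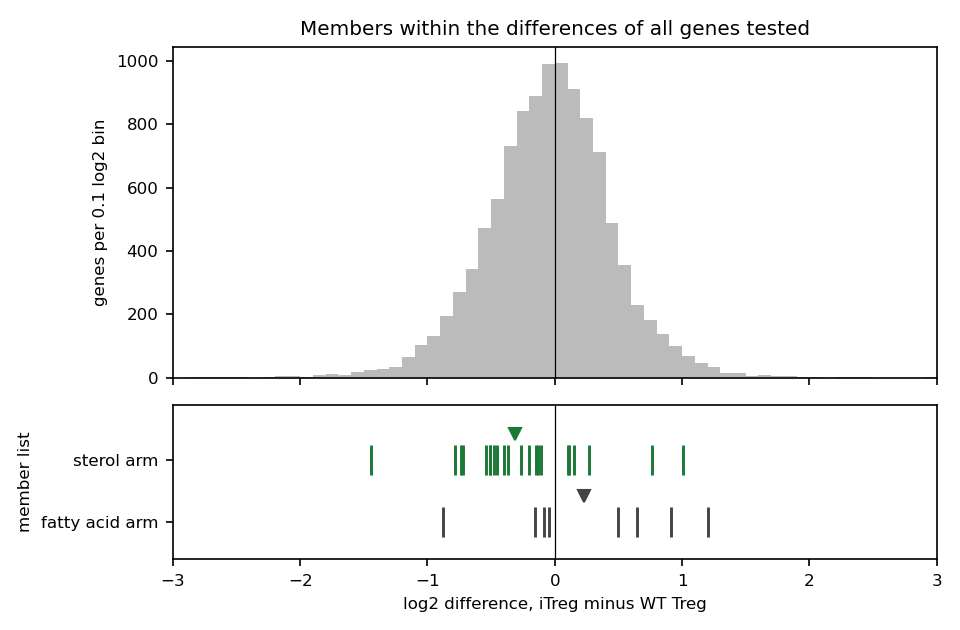
The upper panel counts the 10916 genes tested by log2 difference, iTreg minus WT Treg, in bins of 0.1. The lower panel marks each of the 22 sterol and 8 fatty acid genes with a tick and each arm's median (-0.32 and 0.23) with a triangle. The sterol ticks lie mostly left of 0 and the fatty acid ticks on both sides.

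**Figure D2:**
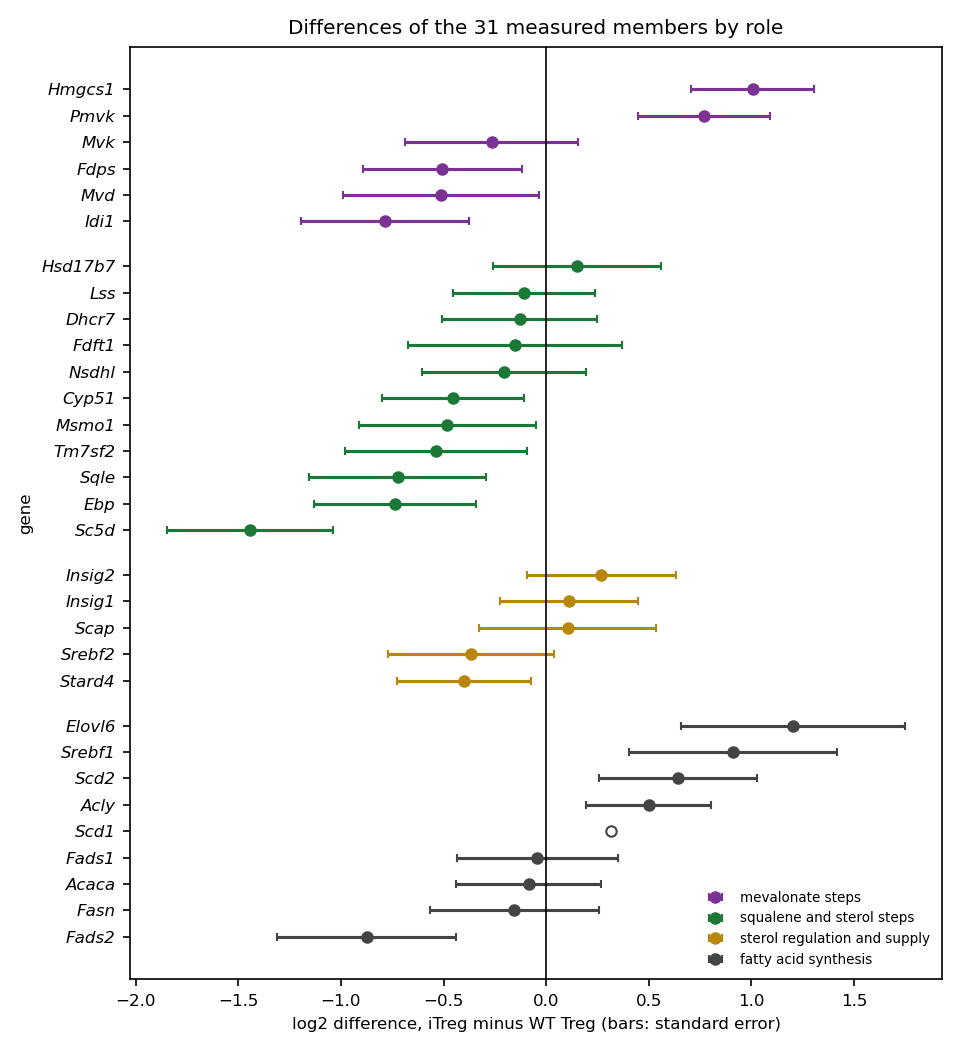
Log2 differences, iTreg minus WT Treg, are drawn for the 31 measured members by role, with the standard error from limma as bars. Scd1 is drawn open and without a bar because it was not tested. In the squalene and sterol block 10 of 11 points lie left of 0, from -1.44 for Sc5d to -0.11 for Lss.

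The mevalonate steps pointed both ways, with 2 of 6 genes higher in iTreg and 4 lower. Hmgcs1, the cytosolic synthase that makes HMG-CoA at the entry of the pathway, had MAS5 signals of 1288, 859 and 1623 across iTreg replicates 1 to 3 against 526, 655 and 618 in WT Treg. Every iTreg array lay above every WT Treg array, and the means were 1257 ± 383 in iTreg and 599.7 ± 66.9 in WT Treg (SD, n = 3 each). The log2 difference was 1.01 ± 0.30 (SE; limma adjusted p = 0.426).

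That difference rested on 1 of the 5 probe sets of Hmgcs1, the brightest. The second brightest gave 139, 81.3 and 61.1 in iTreg against 121, 96.7 and 79.4 in WT Treg, and differed by -0.11. The third, which may also detect other transcripts by its name, gave 72.8, 84.9 and 96.7 in iTreg against 71.7, 142 and 82.0 in WT Treg, and differed by -0.14. The fourth gave 62.7, 53.8 and 127 in iTreg against 58.5, 75.8 and 61.6 in WT Treg, and differed by 0.19. In these 3 the groups overlapped and the log2 differences were smaller than their standard errors of 0.41 to 0.43. The dimmest gave 27.2, 4.54 and 2.74 in iTreg against 36.3, 29.3 and 5.86 in WT Treg, mostly within the range of bacterial controls without a spiked target, which reached 28.5. It differed by -0.55 but passed the signal limit only through WT Treg, so its sign carries no weight. With it, 2 of the 5 probe sets pointed up and 3 down. The mean of all 5 gave a log2 difference of 0.079 (limma adjusted p = 0.980). Probe sets were also chosen as specific by name, a rule on the suffix alone that leaves out the brightest. The gene was then read from the second brightest, at -0.11. That rule drops names ending in _a_at, like the brightest, along with those in _s_at and _x_at. Being left out by it does not show that the brightest detects other genes. Whether the brightest detects other transcripts was not tested.

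Pmvk, which adds the second phosphate to mevalonate, had signals of 458, 475 and 389 in iTreg against 344, 235 and 195.5 in WT Treg. All 3 iTreg arrays were above all WT Treg arrays, and the log2 difference was 0.77 ± 0.32 (SE; limma adjusted p = 0.623). Its single probe set gave 0.60 to 0.98 when any one array was left out.

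Idi1, the isomerase that activates the isoprenoid unit, had 208, 269 and 201 in iTreg against 278, 287 and 784 in WT Treg. The groups did not overlap, but iTreg replicate 2 and WT Treg replicate 1 were almost level, and WT Treg replicate 3 stood far above the rest. The log2 difference was -0.79 ± 0.41 (SE; limma adjusted p = 0.708), and without WT Treg replicate 3 it was -0.31. The second probe set of Idi1 gave 218, 220 and 260 in iTreg against 242, 519 and 333 in WT Treg. It differed by -0.56, and there the groups overlapped.

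Fdps, which joins isoprenoid units into farnesyl pyrophosphate, had 32.7, 45.5 and 36.3 in iTreg against 37.9, 65.0 and 86.8 in WT Treg, for a log2 difference of -0.51. Mvd, the decarboxylase that closes the mevalonate section, had 57.9, 20.1 and 113 in iTreg against 72.5, 102 and 79.1 in WT Treg, also at -0.51. The groups overlapped in both genes. A dimmer probe set of Mvd gave 23.4, 2.61 and 20.5 in iTreg against 32.9, 39.9 and 57.9 in WT Treg, without overlap, but its iTreg signals lay within the range of the unspiked controls. Mvk, the mevalonate kinase, differed by -0.27 and, on its other probe set, by -0.01.

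Squalene and sterol steps were the most one-sided block. Of its 11 genes 10 had a lower mean in iTreg, against 52.8% of all genes tested, the median log2 difference was -0.45, and 1 gene, Sc5d, had an unadjusted p under 0.05. The median was -0.21 with the 60th percentile filter and -0.30 without both arrays with label doubts or without both replicate 3 arrays. Averaged over the 11 genes, log2 levels were 7.30, 7.31 and 7.26 in iTreg against 7.61, 7.79 and 7.78 in WT Treg. The averages of the 2 groups thus did not overlap, while over all genes tested the same averages were 7.64, 7.65 and 7.59 in iTreg against 7.69, 7.71 and 7.63 in WT Treg. Counting every tested probe set of the block, 16 of 19 were lower in iTreg, against 52.1% of all probe sets tested. These are descriptions of genes that share arrays, with no test. Without both arrays with label doubts 10 genes were lower, and without both replicate 3 arrays 9.

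Sc5d, the desaturase that acts late in the trimming of the sterol ring, had the largest difference of the sterol arm. Its signals were 155, 168 and 62.5 in iTreg against 284, 412 and 373 in WT Treg. Every iTreg array lay below every WT Treg array, and the means were 129 ± 57.7 in iTreg and 356 ± 65.7 in WT Treg (SD, n = 3 each). The log2 difference was -1.44 ± 0.40 (SE; limma adjusted p = 0.385), from -1.67 to -1.05 without single arrays and -1.76 without both arrays with label doubts. The probe sets of Sc5d did not all show it. On the dimmest the signals were 31.3, 29.8 and 23.9 in iTreg against 36.8, 78.2 and 117 in WT Treg, again without overlap, for a log2 difference of -0.98. On the second brightest they were 110.0, 59.9 and 178 in iTreg against 78.7, 122 and 121 in WT Treg, with overlap and a log2 difference of 0.016.

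Sqle, the squalene epoxidase that with HMG-CoA reductase limits the flow of the pathway, had 40.7, 63.4 and 66.8 in iTreg against 64.1, 173 and 95.2 in WT Treg. Only WT Treg replicate 1 reached into the iTreg range, and the log2 difference was -0.72 ± 0.43 (SE; limma adjusted p = 0.736). Ebp, the isomerase of the sterol ring, had 160.5, 317 and 164 in iTreg against 328, 244 and 529 in WT Treg, for a log2 difference of -0.74 ± 0.39 (SE; limma adjusted p = 0.717). Its groups overlapped through iTreg replicate 2 and WT Treg replicate 2.

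Fdft1, squalene synthase, was read differently by its probe sets. The brightest, which by its name may also detect other transcripts, gave 854, 161 and 538 in iTreg against 354, 385 and 773 in WT Treg. Its log2 difference was -0.15, with both groups widely spread. On the next the signals were 103, 48.5 and 32.6 in iTreg against 136, 124 and 124 in WT Treg, without overlap, for a log2 difference of -1.002. The probe set with steadier WT Treg values was thus the one that separated the groups (limma adjusted p over all probe sets = 0.791).

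Among the demethylation and reduction steps, Cyp51, the lanosterol demethylase, differed by -0.45, and its other probe sets by -0.30 and, without overlap, -0.70. Msmo1, a methyl sterol oxidase, differed by -0.48 and -0.63 on its 2 probe sets. Tm7sf2, a sterol reductase, differed by -0.54, with iTreg signals of 39.1, 21.8 and 47.8 against 102, 63.8 and 27.2 in WT Treg. Nsdhl, which works with Msmo1, differed by -0.21, Lss, which closes squalene into lanosterol, by -0.11 and the reductase Dhcr7, which acts after Sc5d, by -0.13. Dhcr7 had 236, 413 and 683 in iTreg against 376, 465 and 507 in WT Treg, so the iTreg arrays spanned the whole range. Hsd17b7, the ketosteroid reductase of the demethylation complex, was the gene with a higher mean, at 0.15 and at 0.52 on its other tested probe set, both with overlap.

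**Figure D3:**
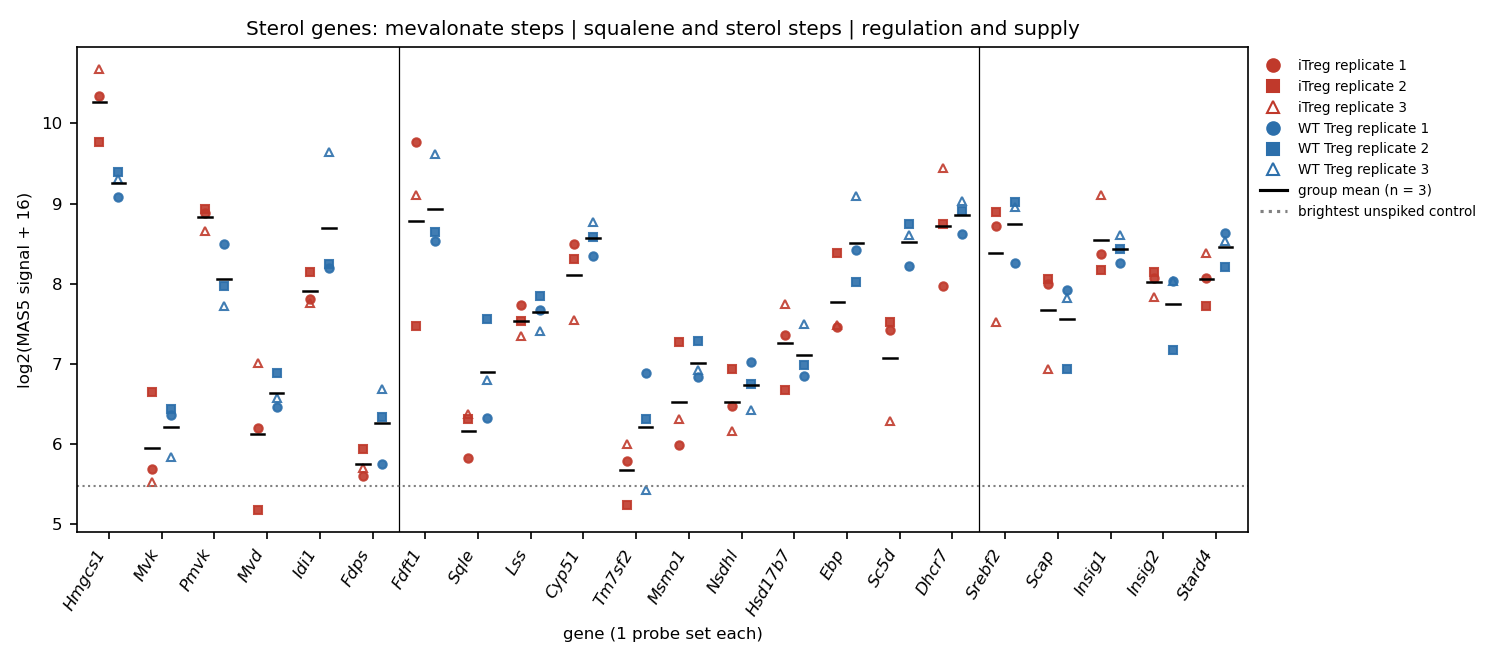
Each point is the log2(MAS5 signal + 16) of 1 array for the 22 measured sterol genes, iTreg left of WT Treg, with black bars at group means (n = 3). The dotted line is the brightest bacterial control without a spiked target (signal 28.5). Hmgcs1 and Pmvk lie higher in all 3 iTreg arrays, and Idi1 and Sc5d lie lower.

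Among the regulators of the sterol arm, 3 of 5 tested genes had a higher mean in iTreg and 2 a lower one. Of the 11 tested probe sets of these genes 5 were higher and 6 lower. Srebf2, which encodes the SREBP of the sterol arm, had 404, 462 and 168 in iTreg against 290.1, 504 and 480.3 in WT Treg, for a log2 difference of -0.37 that was 0.063 without iTreg replicate 3. Scap differed by 0.11, with 241, 252 and 107 in iTreg against 227, 107 and 210.2 in WT Treg, and by -0.45 on its dimmer probe set. Insig1, itself an SREBP target, had 314, 271 and 534 in iTreg against 289, 330.2 and 375 in WT Treg, for a log2 difference of 0.11. Insig2 differed by 0.27, and its other probe sets by 0.037 and -0.0049. On the probe set used, the groups overlapped in all 4 genes, the differences were smaller than their standard errors, and adjusted p ran from 0.862 to 0.973.

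Stard4, a carrier of sterol between membranes, was again split by probe set. The brightest gave 252, 196 and 319 in iTreg against 382, 281 and 355 in WT Treg, for a log2 difference of -0.40. On the next the signals were 147, 162 and 81.0 in iTreg against 252, 300.04 and 402 in WT Treg, without overlap, for a log2 difference of -1.22 ± 0.38 (SE; limma adjusted p over all probe sets = 0.636). The dimmest probe set differed by 0.31. Over the sterol arm, 14 genes had more than 1 tested probe set, and in 5 of them these pointed both ways. Of 43 tested probe sets 32 were lower in iTreg. They include the dimmest of Hmgcs1, which passed the signal limit only through WT Treg. Without overlap, 7 were lower and 2 higher, against 6.89% and 4.54% of all probe sets. Over both arms 60 probe sets were tested and 0 were called, where the whole table had 1 called higher and 6 called lower (0.0037% and 0.0222% of 27022). At an unadjusted p under 0.05, 4 of the 60 were higher in iTreg and 5 lower, against 2.44% and 3.77% of all probe sets.

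**Figure D4:**
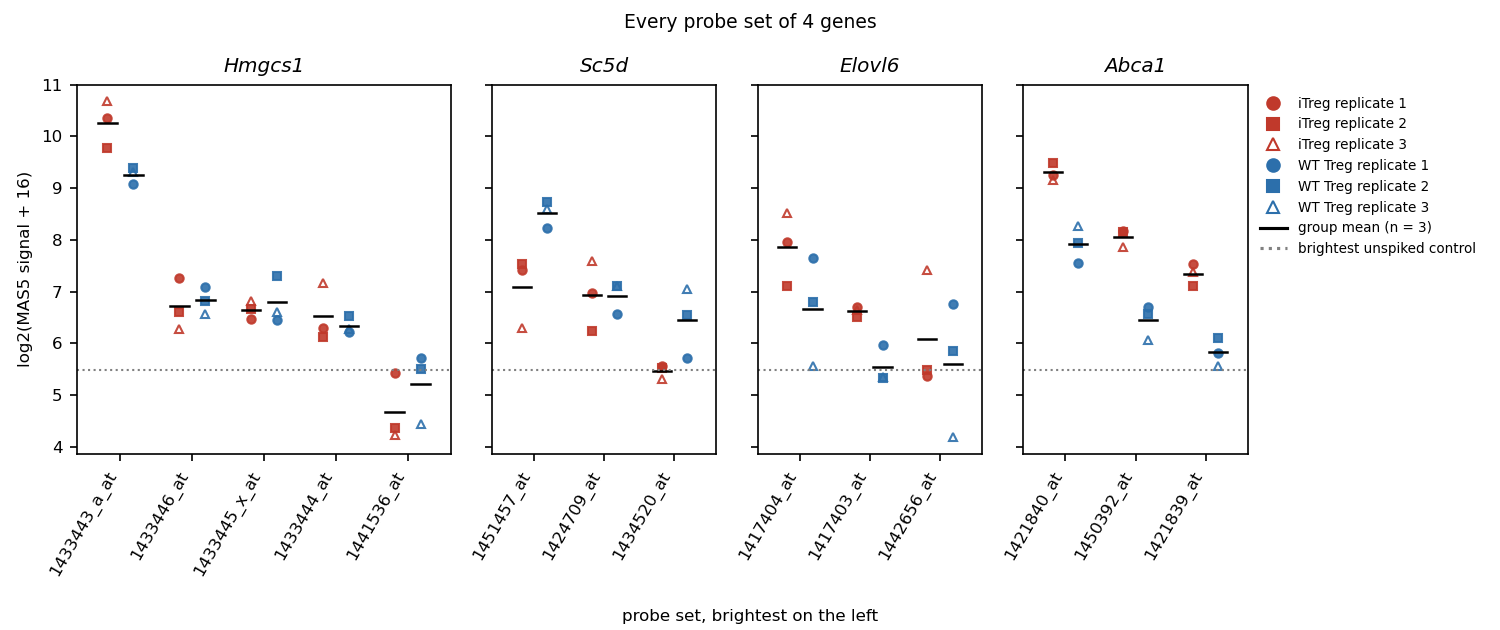
Each point is the log2(MAS5 signal + 16) of 1 array, iTreg left of WT Treg, for every probe set of Hmgcs1, Sc5d, Elovl6 and the cholesterol exporter gene Abca1, brightest on the left, with black bars at group means (n = 3). The groups of Hmgcs1 part on its brightest probe set alone. The groups of Abca1 part on all 3.

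In the fatty acid arm the genes were ordered from precursor to product, and none had groups without overlap on the probe set used. Acly, which makes cytosolic acetyl-CoA from citrate for both arms, had 2597, 2155 and 3333 in iTreg against 1271, 2283 and 2256 in WT Treg. Only WT Treg replicate 1 stood clearly below the iTreg arrays, and the log2 difference was 0.50 ± 0.31 (SE; limma adjusted p = 0.744), or 0.22 without that array. Its next brightest probe sets differed by 0.54 and -0.11. The committed steps were close to level: Acaca, the carboxylase, differed by -0.08 and Fasn, the synthase, by -0.16, each within its standard error of 0.35 and 0.41. Fasn had 116, 154 and 139 in iTreg against 102, 130.2 and 262 in WT Treg.

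Elovl6, which extends palmitate to stearate, had the largest difference of all members after Sc5d. Its signals were 234, 122 and 352 in iTreg against 184, 94.9 and 31.1 in WT Treg, for a log2 difference of 1.203 ± 0.55 (SE; limma adjusted p = 0.655). WT Treg replicate 1 lay above iTreg replicate 2, and WT Treg replicate 3 was far below the rest; the difference was 0.65 without WT Treg replicate 3 and 0.32 without both replicate 3 arrays. A dimmer probe set was steadier. It gave 88.5, 74.96 and 83.8 in iTreg against 46.3, 24.0 and 24.9 in WT Treg, all iTreg arrays above all WT Treg arrays. Its log2 difference was 1.07 ± 0.40 (SE; limma adjusted p over all probe sets = 0.747). Its signals in WT Treg replicates 2 and 3 lay within the range of the unspiked controls. The dimmest probe set gave 25.4, 28.7 and 155 in iTreg against 92.8, 41.4 and 2.22 in WT Treg. There the groups overlapped, with a log2 difference of 0.49.

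Scd2, a desaturase that turns stearate into oleate, had 373, 599.6 and 335 in iTreg against 155, 351 and 335 in WT Treg. Its 3 probe sets differed by 0.64, 1.07 and 0.33, all upward with overlapping groups. Without WT Treg replicate 1 the log2 difference was 0.29. Scd1, its relative better known from liver and fat, was at 2.10, 9.03 and 20.8 in iTreg against 6.59, 0.407 and 7.25 in WT Treg, within the range of the unspiked controls.

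Srebf1, which encodes the SREBP of the fatty acid arm, had 228, 197 and 882 in iTreg against 150.4, 239 and 149.6 in WT Treg. The mean difference of 0.91 ± 0.51 (SE; limma adjusted p = 0.717) came mostly from iTreg replicate 3, without which it was 0.25. The desaturases of polyunsaturated fatty acids did not share a direction beyond their errors. Fads1 had 163, 253 and 295.5 in iTreg against 149.6, 349 and 255.5 in WT Treg, for a log2 difference of -0.04. Fads2 had 2.79, 2.59 and 25.1 in iTreg against 10.1, 36.7 and 48.3 in WT Treg, where all iTreg arrays lay within the range of the unspiked controls, and differed by -0.88 (limma adjusted p = 0.697).

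**Figure D5:**
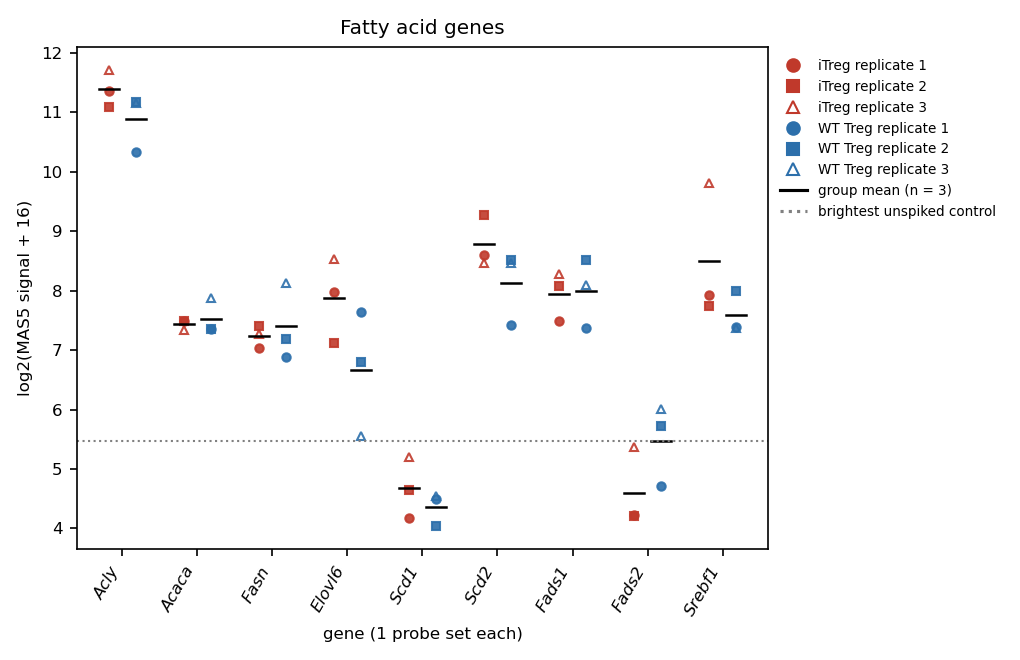
Each point is the log2(MAS5 signal + 16) of 1 array for the 9 fatty acid genes, iTreg left of WT Treg, with black bars at group means (n = 3) and the brightest unspiked control (signal 28.5) dotted. The groups overlap in every gene, and Srebf1 in iTreg replicate 3, at a signal of 882, stands above its group.

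Averaged over the 8 tested genes, the fatty acid arm was at log2 levels of 7.76, 7.80 and 8.34 in iTreg against 7.39, 7.91 and 7.83 in WT Treg. The groups overlapped, and the highest value was that of iTreg replicate 3 and the lowest that of WT Treg replicate 1. Over the 22 sterol genes the averages were 7.55, 7.55 and 7.50 in iTreg against 7.69, 7.76 and 7.88 in WT Treg, without overlap. These averages weigh every gene alike. The summed signals of the same genes, in which bright genes weigh most, did overlap. They were 5843, 5148 and 5928 in iTreg against 5079, 5434 and 6691 in WT Treg.

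Other genes of sterol handling, from a list of 26 of which 15 were tested, showed no common shift: 9 were higher and 6 lower in iTreg, with a median log2 difference of 0.10. Abca1, the pump that exports cholesterol to lipoprotein acceptors, was the one with an unadjusted p under 0.05, where 3% of all genes tested were higher and 4.58% lower at that limit. It had signals of 598, 700.5 and 558 in iTreg against 172, 229.8 and 291 in WT Treg. Its means were 619 ± 73.6 in iTreg and 231 ± 59.7 in WT Treg (SD, n = 3 each), for a log2 difference of 1.38 ± 0.31 (SE; limma adjusted p = 0.193). The other 2 probe sets differed by 1.61 and 1.51, and on all 3 every iTreg array lay above every WT Treg array. Without single arrays the log2 difference ran from 1.201 to 1.56, and under all 20 alternatives it kept its sign, with adjusted p from 0.0635 to 0.870. The related exporter gene Abcg1 differed by 0.33, and by -0.056 on its other probe set. Mylip, whose product degrades the LDL receptor, differed by 0.42. Mbtps1, the protease that cuts SREBP in the Golgi, differed by -0.64, and by 0.23 and -0.46 on its other probe sets. None of these genes passed the test.

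Other genes of fatty acid metabolism, 22 tested of a list of 28, were balanced, with 11 higher and 11 lower and a median log2 difference of 0.010. At an unadjusted p under 0.05, 0 were higher and 2 lower, against 3% and 4.58% of all genes tested. Fabp5, a carrier of fatty acids in the cytosol, had 1081, 393 and 1441 in iTreg against 1702, 2183 and 2358 in WT Treg, for a log2 difference of -1.26 ± 0.41 (SE; limma adjusted p = 0.508). Its other probe set gave 116, 84.8 and 159 in iTreg against 342, 486 and 844 in WT Treg, for a log2 difference of -2.02 (limma adjusted p over all probe sets = 0.226). Both probe sets were lower in every iTreg array, and the difference on the brighter one was -0.72 without iTreg replicate 2. Oxsm, a synthase of the mitochondrial fatty acid pathway, had 66.1, 114 and 36.3 in iTreg against 122, 193 and 129 in WT Treg, for a log2 difference of -0.97 (limma adjusted p = 0.651). Cpt1a, which brings fatty acids into mitochondria for oxidation, differed by -0.33. On its other probe sets, almost as bright, it differed by 0.068 and 0.16, and the groups overlapped on all.

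Proliferation genes, listed because dividing lymphocytes make more sterol, did not part the groups. Of 12 tested, 6 were higher and 6 lower in iTreg, and 0 had an unadjusted p under 0.05. Their average log2 level was 7.69, 7.22 and 8.48 in iTreg (replicates 1 to 3) against 7.66, 7.43 and 8.13 in WT Treg, so that in each group replicate 3 was the highest.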

How the data were processed

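The deposited values are MAS5 intensity signals, linear, 1 per probe set, from biotin-labelled total RNA extracted with Trizol on 1-colour Affymetrix arrays, per the labels and the submitters' processing notes, which give no version. All were above 0 and each array shared a 2% trimmed mean, so scaling preceded deposit. No detection calls were used, and the number of arrays limits the precision.

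Of 45101 probe sets, 64 were controls; the platform annotation gave 34945 1 symbol, 932 several and 9160 none, and the last 2 kinds were not used. Symbols were updated through RefSeq gene IDs, and 204 probe sets kept the older one. Signals were taken as log2(signal + 16). Each gene was read from the probe set with the highest mean, and genes at or above the 40th percentile of mean (4.99 on the log2 scale) were tested. Mvd, Fdft1, Lss, Hsd17b7, Acly and Fads2 were read from probe sets ending in _s_at or _x_at, which may also detect other transcripts. The comparison used limma (version 3.58.1, R 4.3.3; eBayes with intensity trend), two-sided, with Benjamini-Hochberg adjustment over all 10916 genes. Probe sets were adjusted over 27022, those at or above the 40th percentile taken over all probe sets. Their limit was thus a little lower than that of genes. The script was tested on simulated data.

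The members and lists were chosen with earlier results of these data known. Named were every member and, of the other pathway lists, genes with an unadjusted p under 0.05. Lyz2, Cd8b1, Cd8a, Cd5, Cd3e, Cd4, Abcg1, Mylip, Mbtps1 and Cpt1a were named after their values were seen. Alternatives were pseudocounts of 1 and 64, median scaling and quantile normalization, a 60th percentile limit or none, other variance models, array weights, other ways to choose probe sets (specific by name means a name not ending in _a_at, _s_at or _x_at), the replicate number as a block, and arrays left out. No genome build is named in the files, and promoters come from RefSeq on GRCm38.p6.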

Additional observations from a re-analysis of the deposited data

How the results depend on the processing

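None of the members was called under any of the 20 alternatives, nor was any of their probe sets under the 18 that read every probe set. The count of all genes called, 3, was 0 with a pseudocount of 1, without a filter, and without both arrays with label doubts or both replicate 3 arrays, 8 with median scaling, 14 with array weights, and 0 to 1 without single arrays; fewer arrays or more genes tested are part of some of these settings, and the cause was otherwise not tested. The sterol median of -0.32 was -0.21 with a pseudocount of 64, -0.24 with median scaling, -0.15 with the 60th percentile filter, which leaves out the dimmer members, -0.40 with probe sets specific by name, -0.21 without both replicate 3 arrays, and -0.31 to -0.24 without single arrays. The median of the squalene and sterol steps, -0.45, was -0.31 with a pseudocount of 64, -0.37 with median scaling, -0.21 with the 60th percentile filter, -0.32 with array weights, -0.54 with probe sets specific by name, -0.30 without both arrays with label doubts and also -0.30 without both replicate 3 arrays, and -0.55 to -0.35 without single arrays. The fatty acid median of 0.23 ran from 0.026 (without WT Treg replicate 1) to 0.64 (without WT Treg replicate 2) when single arrays were left out. It was 0.059 without both arrays with label doubts, and 0.50 with a pseudocount of 1 and with the 60th percentile filter. The count of sterol genes lower in iTreg ran from 11 (60th percentile filter, fewer genes) to 18 around 16. Hmgcs1 turned to -0.11 with probe sets specific by name, since its bright probe set is left out by that rule. Of the members whose main difference was smaller than its standard error, several changed sign with single arrays, such as Fdft1 (0.50 without iTreg replicate 2) and Srebf2 (0.063 without iTreg replicate 3). The median of all genes tested stayed between -0.059 and 0.048. Deviations of same-numbered arrays correlated at 0.17, 0.046 and 0.13, and those of other pairs at -0.17 to 0.053. Replicates 1 and 3 of iTreg correlated best with their own number, and replicate 2 with WT Treg replicate 1 (0.053). These values are small, and whether the replicate numbers pair the arrays was not tested. With the replicate block 3 genes and 0 members were called. Alternatives were added after the data were seen for the count of sterol genes lower in iTreg, the squalene and sterol steps (count and median), the median of all genes tested, the members' probe sets other than those of Hmgcs1, and Abca1, Fabp5 and Oxsm.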
